A study of Drosophila melanogaster with 13 samples.

Results

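The nonassimilated population of the inbred fly line D907 was compared with the ancestral (P0) population it descends from, by whole-genome sequencing of pooled flies (Pool-seq). The comparison has 2 pools among the 13 samples of the series, 1 pool for each population, and takes in every site that the authors list for them. D907 is an inbred line of the Drosophila Genetic Reference Panel, and selection in the study was for ectopic veins, extra pieces of wing vein. P0 flies are the population in which the experiment began. The control line was kept at 25 °C with no heat shock and no selection. The nonassimilated line was taken from the control line and selected for ectopic veins without heat shock, while the assimilated line came from selection under a pupal heat shock. Each pool held the DNA of 100 adult females, so it sampled 200 copies of each autosome and of X, and no pool of a population was repeated. Differences between pools therefore have no measured spread between populations, and the selected line is 1 population. The table set 765469 sites beside each other, and 19 of them had no read in a pool and were left out. The median depth was 87 reads in P0 and 85 reads in the nonassimilated pool, with quartiles of 74 and 99 reads in P0 and of 72 and 97 reads in the nonassimilated pool.

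In a population that starts with little variation, selection can only act on alleles that still segregate, and an allele that reaches fixation carries the alleles linked to it along the chromosome. Crossing over breaks these blocks of linked alleles in Drosophila females, does not take place in males, and is suppressed in heterozygotes of a paracentric inversion such as In(3R)C, known from arm 3R. The wing veins of the fly are placed by Hedgehog and BMP (Decapentaplegic) signals, and vein and intervein fates are then set by the EGF receptor and Notch pathways.

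A site was called segregating where the less common allele of P0 reached 10% of the reads, and fixed where 1 allele reached 98% of the reads of the nonassimilated pool. A run of fixation was a stretch of windows of 10 kb in which at least 90% of the segregating sites were fixed, with gaps of up to 5 windows bridged and at least 10 windows in length. The rule found 2 runs, both on 3R, here named the long run and the short run. Shown next is the reference sequence at the sites where the runs and the largest frequency steps begin and end by the rules used (RefSeq, dm6, plus strand, 5′ to 3′, with the listed site in a capital letter). Run edges follow the windows of 10 kb, and fixed sites also lay before the short run and beyond the long run. The capital letter is the base of the reference genome, since allele bases were not part of the tables used.
First fixed site of the short run, chr3R:15170020-15170048, intron of Gyc88E: gaaacacgtcagttAagatctcccaggag
Last fixed site of the short run, chr3R:15312639-15312667, coding exon of Tm2: cagctggagaaggcCaacaccgagctgga
First fixed site of the long run, chr3R:17608489-17608517, 3′ UTR of sll: taatcataagcgtaGacgactagtgaatg
Last fixed site of the long run, chr3R:32069347-32069375, intergenic beyond Map205: tctgtaagagcataAtacacccccttcct
Last site before the largest step of middle 3R, chr3R:12058412-12058440, intergenic between CG14739 and CG14740: aaagccggaggggcTtaatactcgggttt
First site after that step, chr3R:12062392-12062420, coding exon of CG14740: tgtgtgccctcttgCacccgtggcagttt
First site of the short fixed stretch of 3L, chr3L:15706804-15706832, intergenic between comm2 and CG42571: atatcaattcttggAagtgtcactctcac
Last site of that stretch, chr3L:15731027-15731055, intergenic between comm and CG6244: gttactttagttagTagtttagacgtcga
First site of the 3L block that follows, chr3L:15731172-15731200, intergenic between comm and CG6244: gcaaatggtttttgAggtctgaacgaatc

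Nonassimilated flies had lost most of the variation of 3R and little of the variation elsewhere. In P0, 177775 sites had reads of both alleles, and at 90468 of them (50.9%) the nonassimilated pool had reads of 1 allele only. It kept the alternative allele alone at 57339 sites and the reference allele alone at 33129 sites. These counts cannot be compared, since many sites of 3R have no entry for this pool, as given below. Mean 2pq, the expected heterozygosity over the listed sites, was 0.0835 in P0 and 0.0406 in the nonassimilated pool. On 3R it was 0.258 in P0 and 0.0873 in the nonassimilated pool, so that 33.8% of it remained. On X, 2L, 2R and 3L together it was 0.0180 in P0 and 0.0189 in the nonassimilated pool. Of 154254 segregating sites 80115 (51.9%) were fixed, and 77009 of these lay on 3R. There 64.6% of the 119222 segregating sites were fixed, against 7.10% on X, 6.66% on 2L, 6.26% on 2R, 4.15% on 3L and 6.45% on the fourth chromosome. The mean absolute frequency change at segregating sites was 24.3 percentage points ± 11.4 on 3R (SD over sites, which are linked and are not replicates). It lay between 6.89 and 10.5 percentage points on the other arms.

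**Figure D1:**
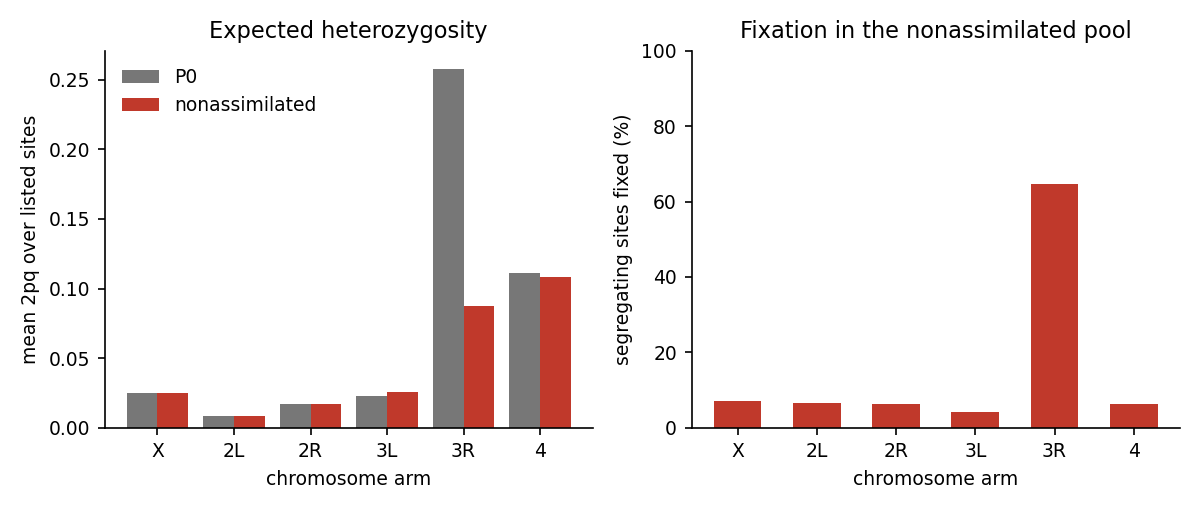
Mean 2pq over all listed sites of each chromosome arm in P0 and in the nonassimilated pool (left), and the percentage of the sites segregating in P0 that were fixed in the nonassimilated pool (right), with 1 pool per bar. On 3R mean 2pq was 0.258 in P0 and 0.0873 in the nonassimilated pool and 64.6% of sites were fixed, while at most 7.10% were fixed on any other arm.

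Allele reads of both pools were set against each other site by site (Fisher's exact test, two-sided, Bonferroni over all sites tested), and sites with an adjusted p below 1e-05 are named changed. The test compares the reads of 2 pools and not replicate populations. Of 765450 sites tested, 14093 (1.84%) had changed, and 13868 of the changed sites (98.4%) lay on 3R. The alternative allele rose at 10766 of the changed sites and fell at 3327, and 13983 of the changed sites (99.2%) were fixed in nonassimilated flies. Listing on 3R was uneven, as given below, so the counts of rises and falls cannot be compared. The number depends on taking reads as independent draws: with read counts scaled to the 200 chromosomes of a pool, 221 sites passed, 169 of them on 3R and 166 in the long run. The test saw mainly the losses of alleles that were common in P0. At the depth of the long run, 91 reads in P0 and 85 in the nonassimilated pool, the complete loss of an allele passed only from a P0 frequency of 36.3%, and the loss of an allele at 30% gave an adjusted p of 0.00175. Fixation and mean frequencies over linked sites are therefore given below beside the changed sites.

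The long run of fixation covered 14.5 Mb, from position 17608503 to position 32069361 of 3R, which is 45.1% of the arm and reaches almost to its distal end. It overlapped 1749 protein-coding genes. Of its 77754 segregating sites 76253 (98.1%) were fixed, 46656 for the alternative and 29597 for the reference allele. The lost allele had been the rarer allele of P0 at 75826 of the fixed sites (99.4%) and the more common allele at 376. Its mean frequency in P0 was 30.8% ± 5.86 (SD over sites), with the 10th and 90th percentiles at 23.9% and 37.7%. Treated as a share of 200 chromosomes, the mean had a Wilson 95% interval of 24.8% to 37.5%. In the nonassimilated pool a count of 0 of 200 chromosomes allows a share of up to 1.5% (3 counts), and its Wilson upper bound is 1.88%. Mean 2pq of the listed sites in the run was 0.276 in P0 and 0.00395 in the nonassimilated pool, of which 1.43% remained. In all 143 windows of 100 kb that lay wholly within the run, the mean absolute change was between 26.8 and 32.7 percentage points and at least 80.03% of the segregating sites were fixed. The run was chosen by fixation in the nonassimilated pool. High fixation, low 2pq and large changes within it therefore follow largely from that rule. The run held 13746 of the changed sites, or 11.6% of its listed sites against 1.84% over the genome. The genome share includes the run, and nearly all changed sites were fixed ones. The higher share in the run therefore also follows in part from that rule.

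The lost alleles had nearly the same frequency along the whole of the long run. A step search over the fixed sites, with steps of at least 1 percentage point, found 1 step, between positions 19533509 and 19534183, in the Dystrophin gene Dys. The lost allele had a mean P0 frequency of 32.2% ± 6.13 over 11245 sites before the step and of 30.6% ± 5.78 over 65008 sites after it, with Wilson intervals of 26.1% to 38.9% and of 24.6% to 37.3% for 200 chromosomes. In the control pool the same alleles were at 23.5% ± 5.92 before and at 22.9% ± 5.39 after the step, and in the assimilated pool at 0.0303% and 0.0385%. Both selected pools thus lacked alleles that the control pool still held. The sites were chosen for fixation in the nonassimilated pool, so its own frequency is fixed by that choice, while those of the control and assimilated pools are not.

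**Figure D2:**
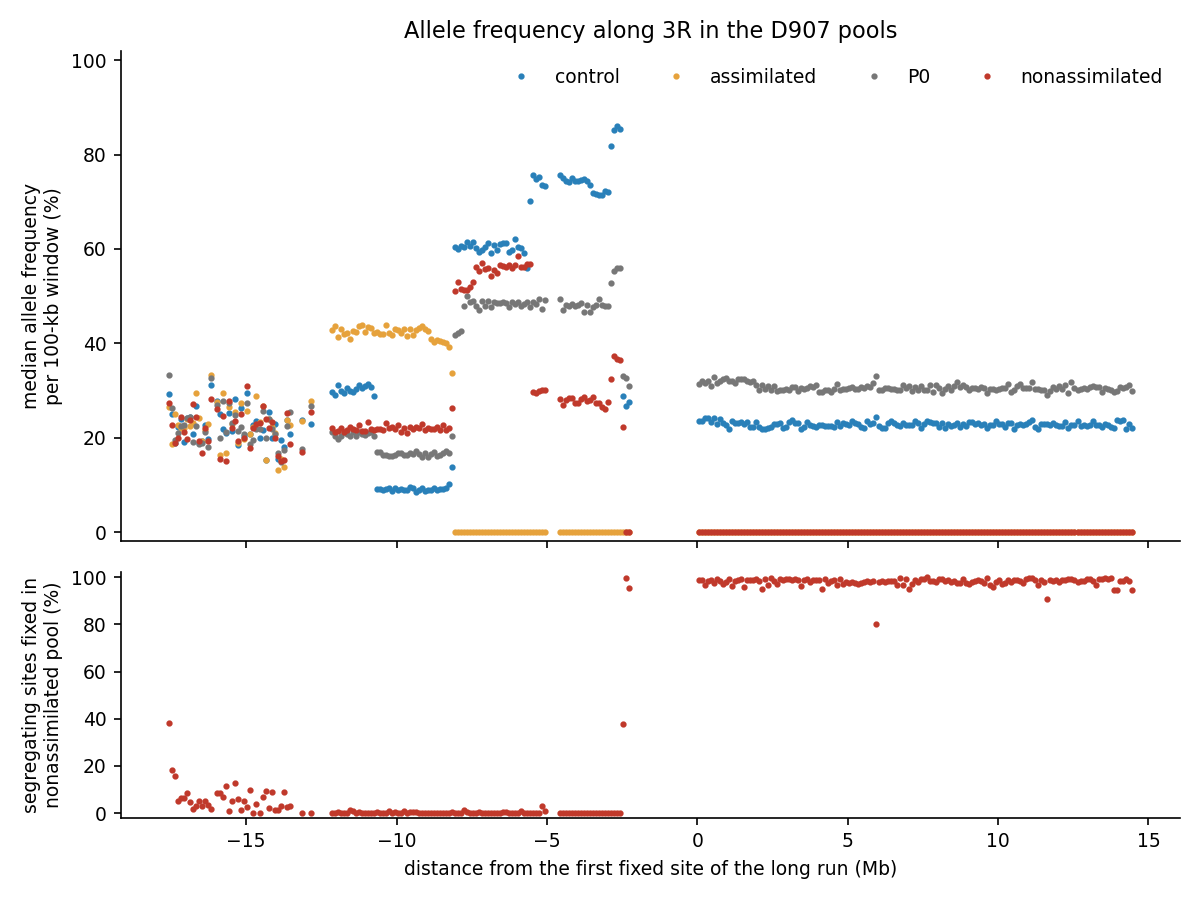
Median allele frequency in windows of 100 kb with at least 20 sites along 3R (upper panel, 1 point per window and pool) and the percentage of segregating sites fixed in the nonassimilated pool (lower panel), against the distance from the first fixed site of the long run. The frequency is that of the allele lost from the nonassimilated pool within the long run, of the allele lost from the assimilated pool in middle 3R, and of the rarer allele of P0 elsewhere; at 0 the points of the nonassimilated pool cover those of the assimilated pool, P0 lies near 31% over the long run and control near 23%.

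The proximal edge of the long run lay at the end of a stretch that did not vary. The first fixed site, in the 3′ UTR of sll (slalom, a transporter of the sulfate donor of the Golgi), had 21 reference and 63 alternative reads in P0, 0 and 79 in the nonassimilated pool, 19 and 62 in control and 0 and 92 in the assimilated pool. The nearest site before it that stayed variable was in the 3′ UTR of CG7606, at position 17597789, with an alternative allele at 83.9% in P0 and 85.4% in the nonassimilated pool. Between the short and the long run, over 2.30 Mb, only 108 sites segregated in P0 (47.0 per Mb) among 11985 listed sites, and 94.6% of the listed sites had the alternative allele alone in both pools. This stretch overlapped 282 protein-coding genes, mean 2pq there was 0.00429 in P0 and 0.00431 in the nonassimilated pool, 12 of the 108 segregating sites were fixed, and none had changed. The edge of the long run is thus known only as the first of its variable sites. At the distal edge, the last fixed site of the run lay 0.920 kb beyond Map205 (a microtubule-associated protein), the last annotated protein-coding gene of the arm. It had 72 reference and 35 alternative reads in P0 and 41 and 0 in the nonassimilated pool. Beyond it only 16 sites are listed, of which 15 segregated in P0 and 8 were fixed. This edge therefore follows the windows of 10 kb and is not the end of fixation. The nearest site beyond it that stayed variable, at position 32072992, lay in an annotated invader4 transposon, with 46 and 94 reads in P0 and 52 and 119 in the nonassimilated pool.

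Many sites of the long run whose alternative allele was the rarer allele of P0 have no entry for the nonassimilated pool. The control table lists 107028 sites segregating in P0 within the long run, and 30061 of them (28.1%) have no entry for the nonassimilated pool. The alternative allele was the rarer allele of P0 at 28802 of the missing sites, with a mean P0 frequency of 30.1% there. Among all sites of the run where it was the rarer allele, 48.6% are missing, against 2.63% where it was the more common allele and 4.16% of segregating sites on X, 2L, 2R and 3L. The state of the nonassimilated pool at these sites is not known, so the counts of sites fixed for the reference and for the alternative allele cannot be compared. The shares of sites fixed and the mean 2pq of 3R and of the genome cover listed sites only and carry the same limit. Whether loss of the allele made these sites unlisted was not tested.

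The short run lay 2.30 Mb nearer to the centromere and showed the same pattern on a small scale. It covered 142.6 kb from position 15170034 to position 15312653 and overlapped 34 protein-coding genes. Of its 450 segregating sites 440 (97.8%) were fixed and 94 had changed. The lost allele was at 32.1% ± 5.49 in P0 (Wilson interval of 26.0% to 38.9% for 200 chromosomes), at 28.05% ± 5.46 in control and at 0.0329% in the assimilated pool. Its proximal edge lay within Gyc88E, which encodes a soluble guanylyl cyclase, and was set by the windows of 10 kb. Fixed sites also lay before it, since the block from 15.16 to 15.31 Mb given below had 465 fixed sites against 440 in the run. The nearest unfixed site before the edge, at position 15162237, had 49 reference and 31 alternative reads in P0 and 55 and 21 in the nonassimilated pool. The first fixed site of the run, at position 15170034, had 31 and 63 reads in P0 and 0 and 85 in the nonassimilated pool (Fisher's exact test, adjusted p = 9.83e-05). The distal edge lay in a coding exon of Tm2, one of the tropomyosin genes, with 61 reference and 29 alternative reads in P0 and 55 and 0 in the nonassimilated pool. Within the run, Tm1, the neighbouring tropomyosin gene, had 119 of 122 segregating sites fixed and 28 changed sites. Mf (Myofilin, a protein of muscle thick filaments) had 70 of 74 fixed.

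Nearer to the centromere than the short run, 3R still varied in the nonassimilated pool but its frequencies changed in blocks with sharp steps. From 5 Mb to the long run, 1.43% of the segregating sites were fixed, those of the short run included. The blocks were found by splitting the row of sites where the mean frequency of P0 or of the nonassimilated pool moved by at least 3 percentage points, over at least 200 sites on each side, and this was done after values of these data had been seen. From 9.476 to 15.31 Mb the frequency given is that of the allele lost from the assimilated pool, which P0 and nonassimilated reads had no part in choosing. Segregating sites that were not listed or not fixed in the assimilated pool are left out of these means. In kibra, for example, 113 of 173 segregating sites entered. From 5.430 to 9.474 Mb, where the assimilated pool was not fixed, it is that of the rarer allele of P0.

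The most pronounced step of middle 3R stood at 12.06 Mb. After it the mean frequency was lower in nonassimilated flies than in P0. Before it the means were higher, with intervals of the difference that included 0. From 12.06 to 14.75 Mb, the mean over 10201 sites was 48.1% ± 6.75 in P0 and 28.2% ± 5.98 in the nonassimilated pool. The difference was -19.9 percentage points, with an interval of -28.9 to -10.4 for 2 samples of 200 chromosomes (Newcombe 95% interval), and the frequency was lower in the nonassimilated pool at 10125 of the sites. The control pool had 73.5% ± 6.53 at these sites, above P0, and the assimilated pool had 0.0101%. In the next block, from 14.75 to 15.12 Mb, the mean over 1410 sites was 55.9% ± 6.38 in P0, 36.8% ± 6.64 in the nonassimilated pool and 85.3% ± 4.93 in control, a difference of -19.1 percentage points from P0 (interval -28.4 to -9.36). Of the sites in these 2 means only 1 had changed by the test of single sites, since a fall from 48% to 28% at the median depth does not pass. Sites outside these means had changed too: jvl, which spans the edge between the 2 blocks, held 4 changed sites. All of 3R before the short run held 28. Between 9.476 and 12.06 Mb the search found 3 blocks. In these the nonassimilated pool had 51.2%, 52.0% and 56.0% where P0 had 42.3%, 49.0% and 48.2% and control had 59.8%, 61.2% and 60.3%. The 3 intervals of the difference from P0 included 0, and the one of the longest block, with 5152 sites, ran from -1.90 to 17.4 percentage points. The reads at the sites on either side of the 12.06 Mb step, which the search placed by these same frequencies, are a description, and neither site passed the test (adjusted p of 1 at both). The last site before it, between CG14739 and CG14740, had 45 reference and 50 alternative reads in P0 and 55 and 37 in the nonassimilated pool. The first site after it, in a coding exon of CG14740, had 49 and 38 in P0 and 35 and 76 in the nonassimilated pool, and the assimilated pool was fixed for the alternative allele at both sites.

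Between these blocks and the short run the nonassimilated frequency stepped down over a further pair of edges. From 15.12 to 15.16 Mb, over 38.7 kb and 216 sites, P0 had 31.5% ± 5.45, the nonassimilated pool 26.7% ± 4.77 and control 26.1% ± 6.93, and the interval of the difference from P0 ran from -13.5 to 4.16 percentage points. From 15.16 to 15.31 Mb, which takes in the short run, P0 had 32.3% ± 5.62 and the nonassimilated pool 0.535% ± 2.94. Both steps lay in introns, the one at 15.12 Mb in CG42788 and the one at 15.16 Mb in Gyc88E.

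Proximal 3R, from 5.430 to 9.474 Mb, differed little between P0 and nonassimilated flies. From 5.430 to 6.880 Mb the rarer allele of P0 was at 21.3% ± 5.19 in P0 and at 22.3% ± 5.80 in the nonassimilated pool over 3361 sites (interval of the difference -7.08 to 9.10 percentage points). From 6.880 to 9.474 Mb it was at 17.1% ± 4.39 and at 22.2% ± 5.51 over 9033 sites (interval -2.73 to 12.8). The 10% minimum cuts off the low end of the P0 values here and not that of the other pools. The edge between these blocks lay in an intron of lncRNA:CR44931. In control the same allele was at 30.7% ± 6.32 before it and at 8.80% ± 5.80 after it, and in the assimilated pool at 42.8% and 41.8%.

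**Figure D3:**
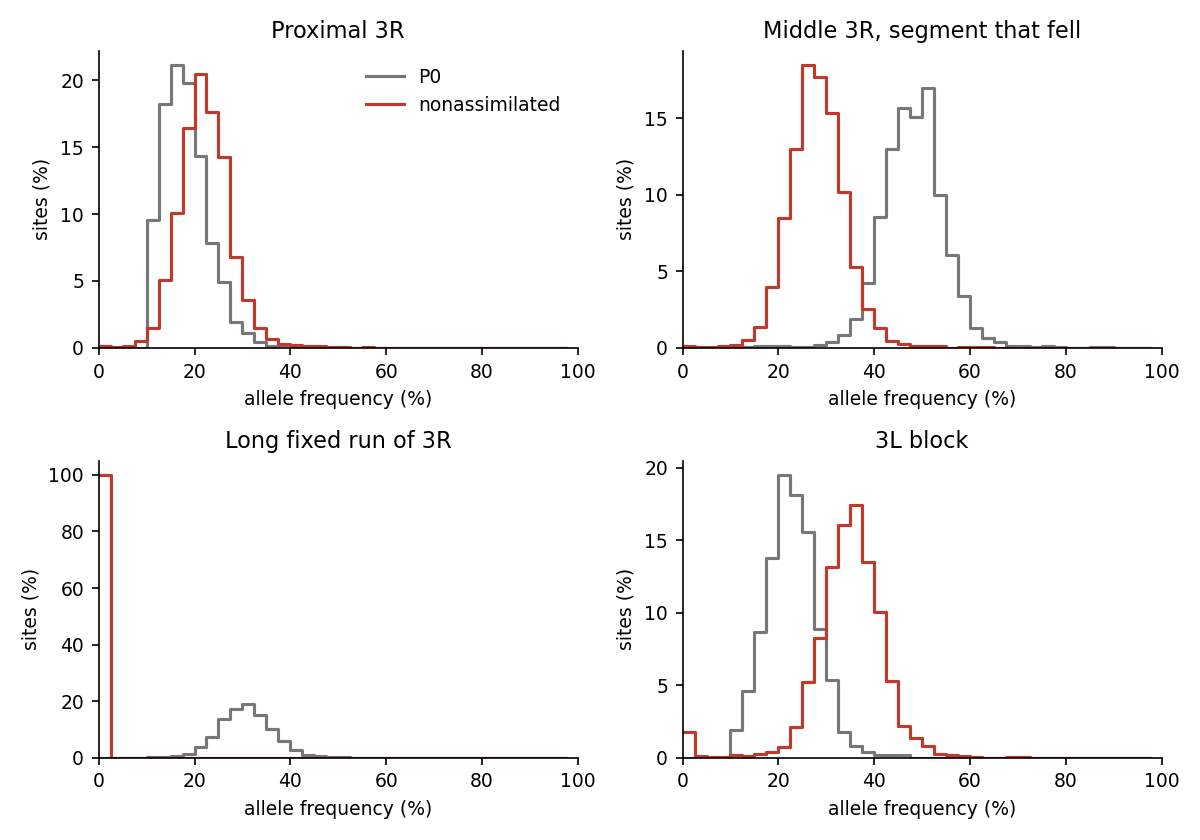
Distribution over sites of the allele frequency in P0 and in the nonassimilated pool (x axis, allele frequency in %; y axis, percentage of sites per bin of 2.5 percentage points) in 4 stretches: proximal 3R, the block of middle 3R from 12.06 to 14.75 Mb, the fixed sites of the long run, and the 3L block with the fixed stretch before it. The distributions of proximal 3R largely overlap, those of middle 3R lie around 48.1% and 28.2%, the long run goes from around 30.8% to 0, and the 3L block moves from around 23.02% to around 35.3%.

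On 3L a block of 0.935 Mb changed towards the rarer allele of P0, which the fixed runs of 3R had mostly lost. From position 15731186 to position 16665929, the rarer allele of P0 rose from a mean of 23.02% ± 5.28 to 35.3% ± 6.60 over 5294 sites, and it was higher in the nonassimilated pool at 5021 of them. The difference was 12.3 percentage points, with a Newcombe interval of 3.36 to 20.9 for 200 chromosomes. The same allele was at 9.57% ± 5.59 in the control pool and at 43.8% ± 7.08 in the assimilated pool. Of these sites 2 had changed and 5 were fixed. The reads of P0 chose the allele here, and the 10% minimum applies to P0 alone. The block was placed by a step search on these data, after values had been seen. Steps of at least 10 percentage points over at least 50 sites were taken. The interval given for the block is therefore a description. Directly before the block lay a stretch of 24.2 kb, from position 15706818 to position 15731041, in which 91 of 92 segregating sites were fixed. There the rarer allele of P0 was at 14.3% ± 2.92 in P0, at 0.0388% in the nonassimilated pool, at 0.0129% in control and at 44.2% ± 4.96 in the assimilated pool. Its difference from P0 was -14.2 percentage points (interval -19.7 to -9.63). The stretch holds comm (commissureless, a sorting protein of axon guidance), where 23 of 23 segregating sites were fixed. The edge between the stretch and the block lay between comm and CG6244. The last fixed site had 84 reference and 12 alternative reads in P0 and 82 and 0 in the nonassimilated pool. The first site of the block had 64 and 24 in P0 and 53 and 30 in the nonassimilated pool. The stretch was too short to count as a run, and it was singled out after its values had been seen.

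The genes that the study found differentially expressed in D907 nonassimilated flies lay partly in the long run. Of the 10 such genes and Hsp83, which encodes the Hsp90 chaperone, 7 had a segregating site and 4 lay in the long run, and in these 4 genes 93 of 93 segregating sites were fixed and 21 had changed. Over all segregating sites of the long run 98.1% were fixed and 17.7% had changed, so these counts are close to those of the run. In Sgsh, which encodes a lysosomal sulfatase of heparan sulfate, 21 of 21 sites were fixed and 9 had changed. Its rarer alleles were at 30.8% ± 4.14 in P0, 0.0429% in the nonassimilated pool and 21.5% in control. The site with the lowest p in Sgsh, in a coding exon at position 18911464, had 81 reference and 48 alternative reads in P0, 103 and 0 in the nonassimilated pool, 71 and 19 in control and 89 and 0 in the assimilated pool (Fisher's exact test, adjusted p = 4.17e-09). CG6026 had 17 of 17 sites fixed and 3 changed, and CG15025 had 9 of 9 fixed and 2 changed. In Cad96Ca, a receptor tyrosine kinase gene, 46 of 46 sites were fixed and 7 had changed, among them an intronic site with 52 reference and 41 alternative reads in P0 and 72 and 0 in the nonassimilated pool. Its rarer alleles went from 31.7% ± 6.90 to 2.19% ± 14.7, with a wide SD since the rarer allele of P0 was fixed at 1 site. CG14855 lay in middle 3R. There the allele lost from the assimilated pool was at 58.4% ± 2.73 in P0, 37.5% ± 2.77 in the nonassimilated pool and 84.0% in control over 20 sites, and none of its 22 segregating sites was fixed or changed. Hsp83, CG7231, wcd and Idgf5, on 2L, 2R and 3L, had listed sites (7 in Hsp83) but none that segregated.

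Genes of vein patterning lay inside and outside the long run, and their counts are to be read against 98.1% of all segregating sites of the long run fixed and 17.7% changed, and against 4.15% to 7.10% fixed on the other large arms. In the EGF receptor list, pnt (pointed, the ETS transcription factor at the end of the pathway) was the only gene of the runs, with 315 of 326 sites fixed and 45 changed. Its site with the lowest p, in a coding exon at position 23291999, had 41 reference and 69 alternative reads in P0, 0 and 114 in the nonassimilated pool, 22 and 89 in control and 0 and 117 in the assimilated pool (Fisher's exact test, adjusted p = 1.54e-09). The ligand vn, the processing factor rho, the receptor Egfr and the inhibitor sty had between 1 and 7 segregating sites each and none fixed. The inhibitor aos (argos) lay in the 3L block, where its rarer alleles were at 24.8% ± 5.08 in P0, 34.4% ± 5.48 in the nonassimilated pool, 11.8% in control and 43.1% in the assimilated pool over 35 sites. In the Notch list, 15 of 20 genes lay in the long run. Of the 13 with a segregating site, 10 had all sites fixed, against 82.0% of all protein-coding genes of the run. Over the 13 genes 291 of 299 sites were fixed and 72 had changed. The ligand Delta had 104 of 109 sites fixed and 27 changed. Its rarer alleles were at 32.6% ± 5.44 in P0, 0.961% ± 6.11 in the nonassimilated pool and 23.2% in control. Its intronic site with the lowest p had 42 reference and 52 alternative reads in P0, 0 and 88 in the nonassimilated pool, 17 and 57 in control and 0 and 99 in the assimilated pool (Fisher's exact test, adjusted p = 2.15e-09). Ser, the other ligand, had 108 of 110 sites fixed and 31 changed, with 47 reference and 77 alternative reads in P0 and 0 and 117 in the nonassimilated pool at its site with the lowest p (Fisher's exact test, adjusted p = 1.11e-10). H (Hairless, the co-repressor of the pathway) had 27 of 27 fixed and 1 changed. Among the Enhancer of split genes, the target genes of the pathway, the number of changed sites ran from 0 of 7 in E(spl)mdelta-HLH and 0 of 5 in E(spl)m2-BFM to 3 of 8 in E(spl)malpha-BFM and 5 of 6 in E(spl)m4-BFM. The only unfixed site among them was 1 of 2 in E(spl)mgamma-HLH. The receptor gene N, on X, had 10 segregating sites, of which 1 was fixed. The ubiquitin ligase neur, in proximal 3R, had 104 sites and none fixed.

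The other vein lists had 1 gene each in the long run. The ligand hh was at 31.0% ± 6.73 in P0 and 0.541% ± 2.14 in the nonassimilated pool, with 64 of 69 sites fixed and 17 changed. Its intronic site with the lowest p had 63 reference and 46 alternative reads in P0, 110 and 0 in the nonassimilated pool, 73 and 20 in control and 87 and 0 in the assimilated pool (Fisher's exact test, adjusted p = 1.98e-11). Med, the common Smad of the BMP pathway, had 8 of 9 sites fixed and 2 changed, and the kinase wts (warts) of the Hippo pathway had 64 of 65 fixed and 21 changed. The BMP receptor put and the Hippo regulator kibra lay in the block of middle 3R that fell. In kibra the allele lost from the assimilated pool was at 46.9% ± 6.55 in P0, 26.7% ± 5.16 in the nonassimilated pool and 71.1% in control over 113 sites, and in put at 49.3% ± 5.74, 28.6% ± 3.99 and 77.4% over 8 sites. Neither gene had a fixed or changed site. The genes of these lists off 3R that had a segregating site, among them tkv, sog, Mad, ptc, kn, px and ds, had between 2 and 11 each. Of these sites 2 in ds and 1 in px were fixed, and none had changed.

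Of the heat shock genes, 2 lay in the runs, where 98.1% (long run) and 97.8% (short run) of all segregating sites were fixed. Hsc70-4, a constitutive chaperone gene in the short run, had 3 of 3 sites fixed and 1 changed, and Hsp68, in the long run, had 7 of 7 fixed and 1 changed. The Hsp70 genes of 3R are near-identical copies whose reads can be misplaced among them, and their values are uncertain. Of them Hsp70Bc had the most segregating sites, 5, and none was fixed. The 8 homeotic genes of 3R had 797 segregating sites, of which 2 were fixed and none had changed, and most lay in lab, pb, Dfd, Scr and Antp in proximal 3R. The rarer alleles of Antp were at 17.4% ± 4.73 in P0, 22.1% ± 5.32 in the nonassimilated pool and 8.40% in control, and 1 of its 332 sites was fixed. Ubx, abd-A and Abd-B lay in the invariant stretch between the runs and had 4, 1 and 2 segregating sites.

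**Figure D4:**
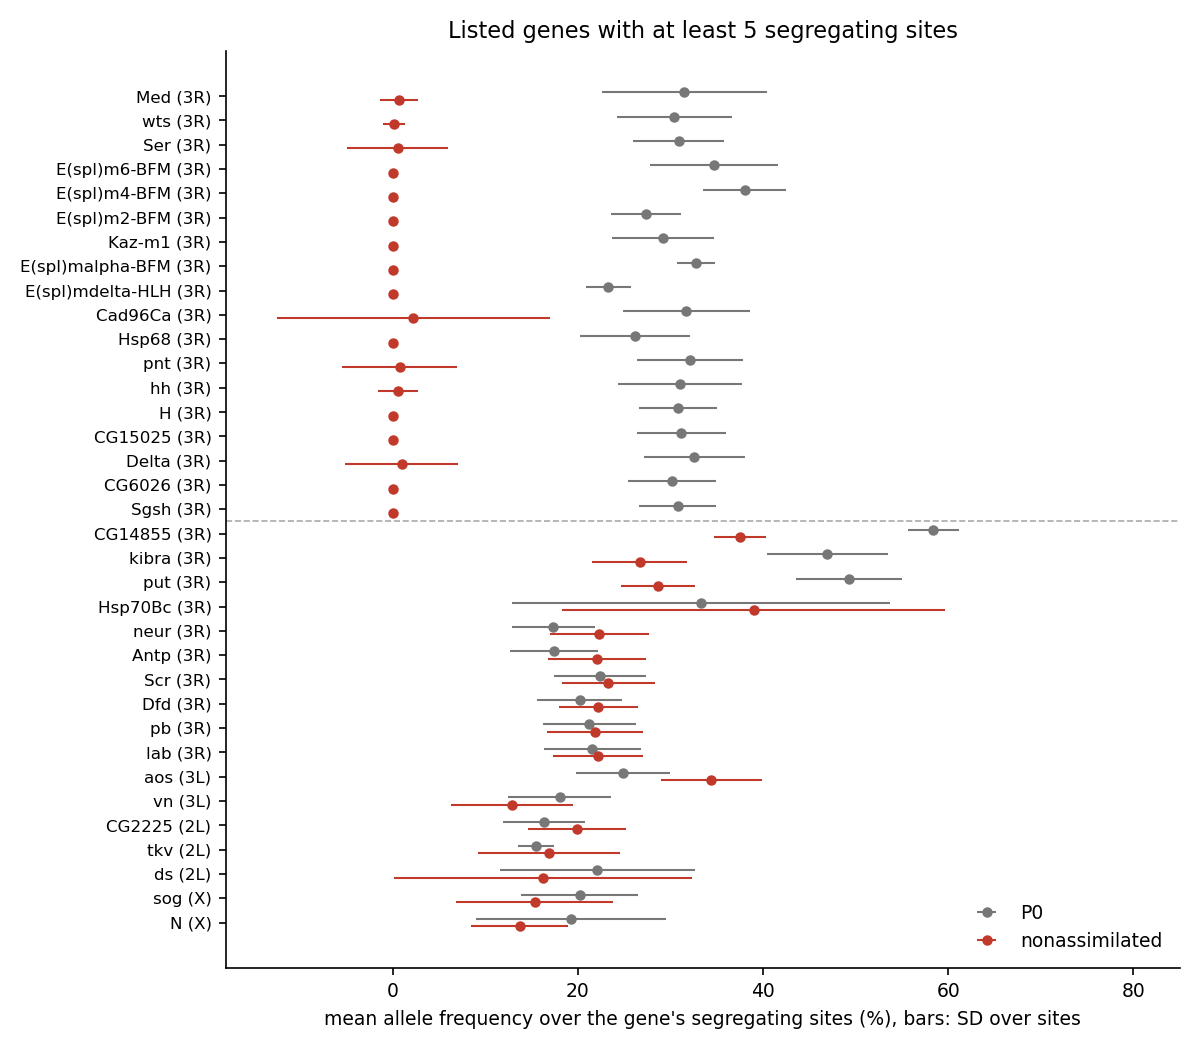
Mean allele frequency over the segregating sites of each listed gene with at least 5 such sites, in P0 and in the nonassimilated pool (x axis, %; bars, SD over sites of the gene), with genes within the runs above the dashed line. The allele is the rarer one of P0, and for CG14855, kibra and put the allele lost from the assimilated pool. In the runs, means of the nonassimilated pool lay at 2.19% or below, and P0 means between 23.3% and 38.0%.

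In the long run as a whole, 1648 of the 1748 protein-coding genes that lay wholly within it had a segregating site. Of these, 1352 (82.0%) had all such sites fixed, 1135 had a changed site and 942 had one in a coding exon. The 10 genes with the most changed sites all lay in the run, from CG34353 (169 changed of 884 segregating sites) to msi, which encodes the RNA-binding protein Musashi (90 of 616). Among them were fru, the transcription factor gene of male courtship (153 of 764), the receptor tyrosine phosphatase gene Ptp99A (142 of 651), Dys (120 of 724) and cpo, encoding the RNA-binding protein Couch potato (117 of 675). In these 10 genes the rarer alleles had a mean P0 frequency between 30.3% and 32.2%. Of the segregating sites of the run, 48.4% lay in introns, 27.2% between genes, 15.4% in coding exons, 4.68% in 3′ UTRs and 2.69% in 5′ UTRs, with nearly the same percentages among the fixed sites. Among changed sites 23.3% lay in coding exons.

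Variation remained at 1501 segregating sites of the long run, scattered over 666 of its 1447 windows. At 854 of them both alleles reached 10% in the nonassimilated pool. The 10 windows of 10 kb with most of these sites held 272 of them (18.1%). The window at 23.59 Mb had 77 unfixed of 172 segregating sites, 70 of them in CG33337 and all 77 in the overlapping asRNA:CR46469. Their rarer alleles were at 37.4% in P0 and at 34.5% ± 14.3 in the nonassimilated pool. The window at 23.53 Mb had 57 of 94, of which 48 lay in Ugt303B3, a UDP-glycosyltransferase gene, at 42.4% in P0 and 44.4% ± 8.20 in the nonassimilated pool. The window at 29.23 Mb had 34 of 97, all in CG11951. The depth at these sites was above that of the run. It was 155 reads in P0 and 157 in the nonassimilated pool at 23.59 Mb, 172 and 184 reads at 23.53 Mb, and 168 and 136 reads at 29.23 Mb, against medians of 91 and 85 reads for the run. Over the whole run, 11.3% of the unfixed sites and 0.304% of all segregating sites had more than 1.5 times the median depth in both pools. At such deep sites 28.4% were fixed, against 98.3% at the others. Another 31.4% of the unfixed sites were shallow in a pool, under the median divided by 1.5, against 8.49% of all segregating sites. The part that extra copies or shallow coverage play in the unfixed sites was not tested. Of the 1437 unfixed sites listed for the assimilated pool, 1098 varied there too.

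Most windows with unfixed sites were at ordinary depth, 424 of the 666 with 812 sites lying within 1.5 times the depth of the run, up or down, in both pools. At 30.87 Mb all 13 segregating sites of CG15545 remained variable, at 28.6% ± 2.87 in P0 and 13.8% ± 1.70 in the nonassimilated pool, at 1.09 and 1.19 times the depth of the run. The same alleles were at 28.8% in control, and at 0 in the assimilated pool at the 7 of these sites listed there. At 27.47 Mb 16 of 64 sites were unfixed, at 45.7% in P0 and 43.0% in the nonassimilated pool, with 89.5 and 84.5 reads. At 18.79 Mb 17 of 74 sites were unfixed with 80 and 78 reads, and the rarer alleles of P0 were there at 32.1% in P0 and at 66.3% in the nonassimilated pool.

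**Figure D5:**
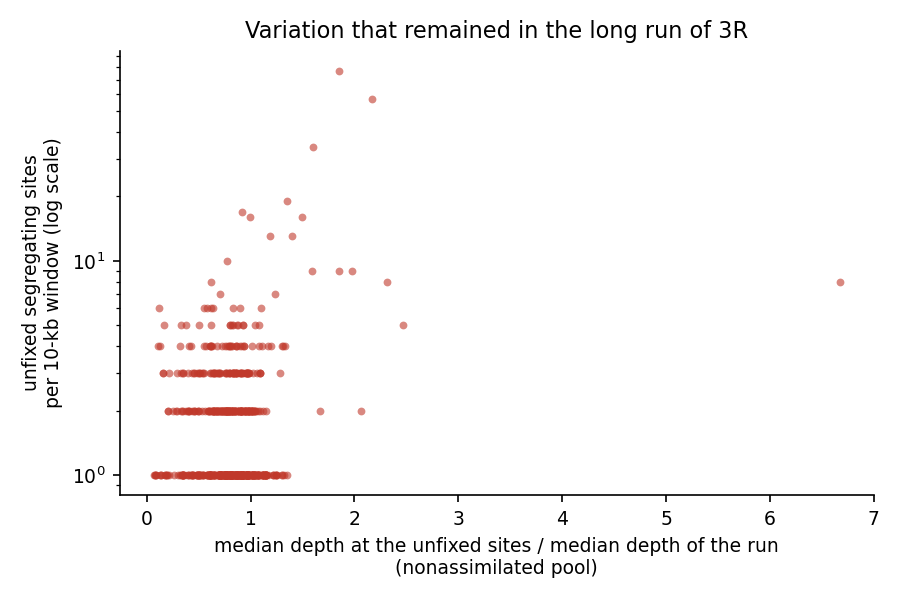
Number of segregating sites that were not fixed in the nonassimilated pool in each window of 10 kb of the long run (y axis, log scale) against the median depth at those sites divided by the median depth of the run in the nonassimilated pool (x axis). Each of the 666 points is a window with at least 1 such site, and the windows with 77, 57 and 34 sites lie at 1.85, 2.16 and 1.60 times the depth of the run.

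On the other arms, changed sites were few and did not form blocks. Another 117 changed sites lay on sequences outside the arms, 0.708% of those listed there. The median depth on these sequences was 37 reads in P0 and 34 in the nonassimilated pool, and 17.3% of their segregating sites were fixed. On X, 2L, 2R, 3L and the fourth chromosome, 108 sites had changed, which lay in 80 windows of 100 kb with at most 5 in a window, and 66 windows held 1 each. In P0 58 of them segregated, 44 had reads of 1 allele only, and 7 had 1 allele in P0 and the other allele alone in the nonassimilated pool. Off 3R, 45 protein-coding genes held a changed site. The gene with the most was Mid1 on 2R with 5. CG43066 on 2R had 4, and its 4 segregating sites were at 45.0% ± 0.642 in P0, at 0 in the nonassimilated pool, at 64.5% in control and at 50.8% in the assimilated pool. rdo and dpy, on 2L, had 3 each, and dpy (dumpy, a giant protein of the apical matrix that anchors the wing epithelium to the cuticle) had 64 segregating sites with 7 fixed. Changed sites of a gene could lie close together, from position 18519797 to 18519806 in CG43066 and from 18047849 to 18047852 in rdo. Those of Mid1 lay from 24701731 to 24702123, with up to 314 reads in P0. Whether such sites are separate changes was not tested. Of the 108 sites, 22 had under 50% of the median depth in a pool. Outside 3R the windows of 100 kb with at least 20 segregating sites, 241 in number, had mean absolute changes between 2.90 and 20.8 percentage points with a median of 7.49. The highest on X was at 12.4 Mb with 20.8, on 2R at 19.7 Mb with 16.2, on 2L at 4.5 Mb with 14.1, and on 3L at 26.9 Mb with 16.8, where the median depth was 19.5 reads in P0 and 12 in the nonassimilated pool.

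Alleles that were not read in P0 appeared at few sites. With at least 30 reads in both pools, 572900 sites had 1 allele only in P0. At 1193 of these (0.208%) both alleles were at 10% or more in the nonassimilated pool, and at 9 the allele unseen in P0 was above 90%. The new allele had a median frequency of 13.6%, 66 sites had 30% or more and 58 had changed. They were spread over X, 2L (93 sites), 2R (141), 3L (147), 3R (240, of which 41 lay in the long run), the fourth chromosome (6) and other sequences (358). In the control pool, a later sample of the line from which the nonassimilated line had been derived, the new allele was read at 691 of the 1184 sites listed there.

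The nonassimilated pool was then set directly against the control and the assimilated pools at the sites listed for both. The test uses no P0 reads, while P0 reads defined the segregating sites and helped to place the blocks. Against control, 5534 of 750295 sites differed (0.738%). The blocks of middle 3R between 9.476 Mb and the short run held 4179 of them (75.5%) and the long run 906 (16.4%), where the mean absolute difference at segregating sites was 32.6 ± 19.4 and 22.9 ± 5.71 percentage points. On 3L 186 sites differed, on X 38, on 2R 28 and on 2L 20. Against the assimilated pool, 8311 of 741500 sites differed (1.12%), and 7950 of them (95.7%) lay in the blocks of middle 3R. The start of middle 3R was placed by fixation in the assimilated pool, so part of that share follows from the choice of stretch. The mean absolute difference at segregating sites there was 38.1 ± 14.5 percentage points. In the long run 47 of 116749 sites differed, with a mean absolute difference of 0.173 percentage points at segregating sites, and in the short run none of 851 did, where 3 had an unadjusted p below 0.05. Both runs were defined by fixation in the nonassimilated pool, while the reads of the assimilated pool had no part in that choice. On 3L 131 sites differed between them. As in the comparison with P0, only large differences pass at single sites at this depth.

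The depth of the nonassimilated pool relative to P0 was even along most of the arms. Among 1311 windows of 100 kb with at least 50 sites, the ratio of the median depth in the nonassimilated pool to that in P0 had a median of 0.977, with quartiles of 0.957 and 0.992. The ratio was under 0.9 in 64 windows. It was lowest at 8.7 Mb of 3L, where the median depth was 227 reads in P0, 126 in the nonassimilated pool, 112 in control and 172 in the assimilated pool. At the distal end of 3R, from 32.0 Mb, the depth was 79 reads in P0 and 52 in the nonassimilated pool.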

How the data were processed

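Genomic DNA of 100 adult females per population was sequenced as 1 pool. The deposited tables hold, per the file headers, the read counts of the reference and the alternative allele at each site in P0 and in 1 derived pool. By the methods, the authors aligned the reads to dm6 with BWA and called SNPs and InDels with GATK; versions and site filters are not given in the sources used here. The values are neither normalized for depth nor pooled over replicates. Other deposited columns hold the authors' own p-values, ranks and q-values and were not used, nor were the 6 tables of the Mix population.

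The allele frequency was the second count divided by the sum. Fisher's exact test (two-sided) was computed per site, with Bonferroni's correction over the 765450 sites tested. The code equalled SciPy at 100% of 2000 simulated sites and called 0 of 199600 unchanged sites. It recovered 15.5% of 200 simulated complete losses from a P0 frequency of 0.3 and 84.5% of 200 from 0.5. P0 counts were equal in the 3 D907 tables at 100% of the shared sites. Intervals treat a mean frequency as a share of 200 chromosomes (Wilson for a share, Newcombe for a difference, both at 95%). They cover the sampling of flies only, and reads are not independent molecules. Sites were annotated with the Ensembl BDGP6.54 gene set, which is on the assembly that dm6 names, and listed positions lay within the reference lengths of all 6 arms.

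Named were the study's candidate genes, lists of vein, heat shock and homeotic genes, the genes at the edges of runs, the 10 protein-coding genes with the most changed sites and those with most off 3R, and the windows with the largest changes. The names Dl, E(spl)m1 and Hop were matched through RefSeq synonyms to Delta, Kaz-m1 and Stip1. The members, lists, blocks and thresholds were chosen with earlier results of these data known. Versions were Matplotlib 3.10.9, SciPy 1.17.1, Numba 0.67.0, pandas 2.3.3 and NumPy 2.4.6, run in Python 3.11.15.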

Additional observations from a re-analysis of the deposited data

Results flagged for a closer look

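Direct tests set the nonassimilated pool apart from each of its relatives. It differed at 5534 sites from the control pool and at 8311 sites from the assimilated pool (Fisher's exact test, Bonferroni-adjusted p below 1e-05). Middle 3R, from 9.476 Mb to the short run, held 4179 and 7950 of these sites. Its start was placed by fixation in the assimilated pool, so the second count depends in part on that choice. The tests compare single pools, and with 1 pool for each population no sample was compared with others of its group.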

How the results depend on the processing

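No paired analysis was possible because each D907 population was 1 pool and the pools share no replicate number, and no replicate could be left out. The number of changed sites against P0, 14093, was 1626 at an adjusted p below 1e-08, 89199 with Benjamini-Hochberg below 0.05 and 221 with read counts scaled to 200 chromosomes. The share on 3R, 98.4%, was then 92.4%, 96.0% and 76.5%, and it was 98.8% with only variable sites tested. Against control, 5534 sites became 1346, 102968 and 492. Against the assimilated pool, 8311 became 25214 with Benjamini-Hochberg and 5099 with scaled counts. The share of segregating sites fixed over the genome, 51.9%, was 51.5% with no read of the other allele, 52.5% with bounds of 5%, 50.05% and 59.9% with P0 minima of 5% and 20%, and 53.7% with at least 30 reads. From 5 Mb of 3R to the long run it was 1.70% with the 20% minimum, in place of 1.43%. With gaps of 1 window bridged, the long run broke up and the longest piece ran from 25337029 to 31519781, while windows of 20 and 50 kb moved the end to 32058559 and 32049298 and left the start in place. Mean 2pq was 0.0849, 0.0813 and 0.0829 in P0 and 0.0415, 0.0373 and 0.0399 in the nonassimilated pool with a correction for depth, with at least 30 reads and without alleles read once. The mean P0 frequency of the lost allele stayed within its interval under all 4 alternatives run. Of the 50 alternatives, 22 left a result within its error or within 1.5 times. The smaller counts at stricter thresholds follow from their construction.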
